A study of Mus musculus with 2 samples.

Results

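The BRD2 loops of mouse chromosome 17 were followed along the chromosome in mouse embryonic stem cells of the line V6.5. The members are all rows of the deposited loop list with chromosome 17 as their chromosome, 550 of 7732 loops, or 7.11%. They were measured by ChIA-PET with an antibody against BRD2: chromatin is precipitated, nearby DNA ends are ligated, and paired-end sequencing shows which places were joined. The series holds 2 samples of untreated wild-type cells, labelled as replicates, in 1 group. Irradiated fibroblasts served as feeders, with serum and LIF in the medium, and both samples entered a single merged list. The share of feeder cells in the samples was not tested. No value below therefore has a replicate error, and no comparison between conditions can be made. Chromosome 17 was chosen by its number of listed loops, so that number is given as a description with no test. Chromosomes 11, 2 and 7 had more loops, with 814, 644 and 615. Per occupied 1 Mb bin, chromosome 17 had 10.6 loops, ahead of chromosome 11 with 9.47, chromosome 19 with 7.86 and chromosome 7 with 7.07.

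BRD2 belongs to the BET family, proteins whose paired bromodomains bind acetylated histones and which take part in transcription by RNA polymerase II at promoters and enhancers. Contacts listed for such a protein join places that it occupies, directly or through other proteins. Mouse chromosome 17 carries the major histocompatibility complex (MHC), called H2 in the mouse. This gene-dense region holds the class I genes, whose products present peptides to cytotoxic T cells, the class II genes, whose products present peptides to helper T cells, and many genes with other functions between them. By the gene order of RefSeq on GRCm38.p6, the stretch from H2-K1 to H2-M2 holds 169 protein-coding genes, of which 35 carry an H2 name and 16 are olfactory receptor genes. The gene for BRD2 itself lies there, between H2-Oa and H2-DMa. Pou5f1, which encodes the pluripotency factor OCT4, lies there too, between H2-Q10 and Tcf19. This order serves as background only. The loop positions are on mm9, an older build, and no gene was placed at a loop.

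Each loop is listed with 2 outer edges and a score, which is the authors' own value. Scores are whole multiples of 1000 with a minimum of 2000, and their unit is not given in the sources used here. An anchor is an edge, or a left and a right edge less than 5000 bp apart, and the partners of an anchor are the anchors it is looped to. On chromosome 17 the loops resolved into 547 anchors. Both edges were seen for 157 of them, with widths of 100 to 1156 bp and a median of 327 bp. The sequencing depth is unknown, so an empty stretch means that no loop was listed there. Shares are given with exact Clopper-Pearson 95% intervals and medians with exact order-statistic 95% intervals. These cover counting error only, and loops that share anchors are not independent.

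Loops were placed in fixed 1 Mb bins by their midpoint, and bins are named here by the Mb in which they begin. The 550 loops spread over 85.6 Mb between the outermost edges, from 4907896 to 90487911. Of the 87 bins in this range, 52 held a loop and 35 were empty, while 12 held a single loop. The median over occupied bins was 7.5 loops, against 3 over the 1288 occupied bins of the whole list. The 10 fullest bins held 289 loops, or 52.5% (48.3 to 56.8%). All 14 bins with 15 or more loops together held 357 loops, or 64.9%. Of the 40 bins in the whole list with 25 or more loops, 8 lay on chromosome 17, and chromosome 11 also had 8.

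**Figure D1:**
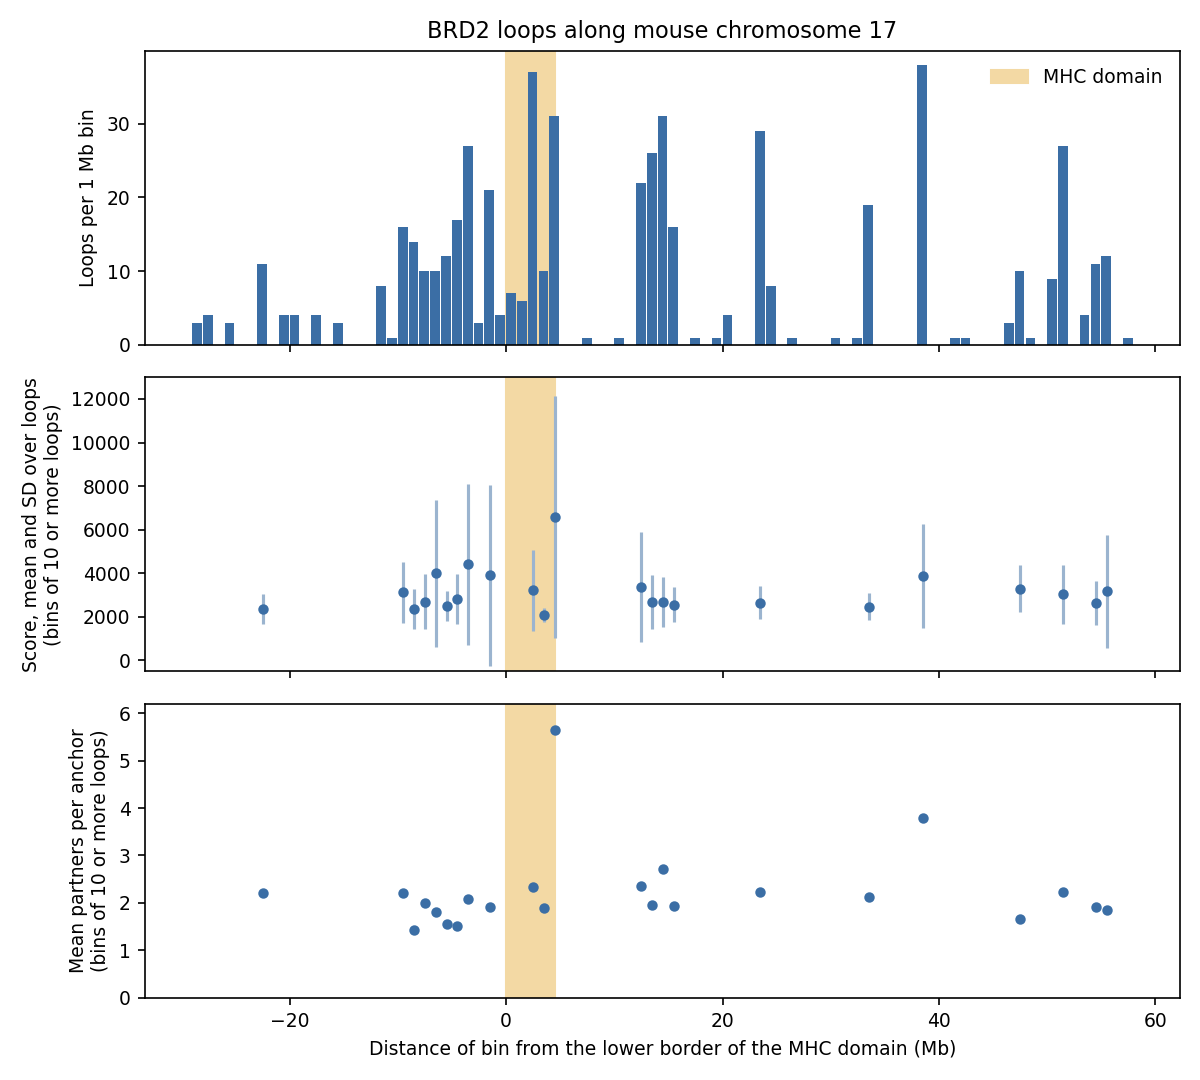
Loops per 1 Mb bin (top), mean score with the SD over loops (middle) and mean partners per anchor (bottom) along chromosome 17, by distance from the lower border of the MHC domain in Mb. The middle and bottom panels show the 23 bins with 10 or more loops. The fullest bin, with 38 loops, lies 38 Mb above that border, and the highest mean score and mean partner number are both in the last bin of the domain, which is drawn past the domain's upper border because bins are 1 Mb wide.

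Loop density formed blocks separated by sparse stretches, and their limits were drawn after the bin counts were seen. From 4 to 23 Mb there were 45 loops in 19 Mb, a density of 2.37 loops per Mb with no score above 5000. From 23 to 38 Mb every one of the 15 bins was occupied, and this block held 225 loops, or 40.9% of the chromosome. Only 2 loops had a midpoint between 38 and 45 Mb, and 1 of these was 31.5 Mb long and had both ends elsewhere. From 45 to 49 Mb, 95 loops lay in 4 neighbouring bins of 22, 26, 31 and 16 loops, or 23.8 loops per Mb. It was the longest run of neighbouring bins with 15 or more loops each. From 49 to 71 Mb the density was 2.95 loops per Mb, with 29 of the 65 loops in the bin at 56 Mb and 19 in the bin at 66 Mb. The bin at 71 Mb held 38 loops and was followed by 11 Mb with 16 loops in all. The last block, from 83 to 91 Mb, held 64 loops, of which 27 lay in the bin at 84 Mb.

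Stretches without any anchor were several Mb long. Loops over 5 Mb were set aside here, because their ends lie far from the bin of their midpoint. The longest such stretch ran from 37334120, the last anchor of the MHC domain, to 43848955, a distance of 6.51 Mb. Next came the stretch from 57419139 to 63842570, with 6.42 Mb. Between 66833556 and 71056403, just before the fullest bin, no anchor was listed over 4.22 Mb. The longest run of empty bins, 4 in all from 67 to 71 Mb, lies in this stretch.

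Most partners were close by. Both edges of 507 loops, or 92.2%, lay in the bin of the midpoint. In the fullest bins most loops also belonged to 1 connected group, meaning a set of anchors joined directly or through other anchors, again without loops over 5 Mb. In the bin at 71 Mb, 36 of 38 loops formed 1 group. In the bin at 37 Mb all 31 did. The bin at 47 Mb had 25 of its 31 loops in its largest group, the bin at 29 Mb 24 of 27 and the bin at 84 Mb 23 of 27. The bins at 35 and 56 Mb were more divided, with 22 of 37 and 15 of 29 loops in the largest of 5 groups each. The bin at 31 Mb had 6 groups, the largest with 10 of its loops of up to 5 Mb.

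Bins with equal numbers of loops differed in score. The bins at 37 and 47 Mb each held 31 loops, but the mean score was 6581 ± 5560.4 in the first and 2677 ± 1137 in the second (SD over 31 loops each). The bins at 29 and 84 Mb each held 27 loops, with mean scores of 4407 ± 3703 and 3037 ± 1344. Scores of 3000 or more, above the lowest listed value, were held by 23 of the 31 loops at 37 Mb and by 12 of the 31 at 47 Mb. Among bins with 10 or more loops this share was highest at 80 Mb, with 8 of 10 loops and a top score of 5000, and lowest at 36 Mb, with 1 of 10. Across the 28 bins with 5 or more loops, Spearman's rho with the number of loops was 0.37 for the mean score and 0.76 for the mean number of partners. Bins share the library, and partners are counted from the same loops, so these coefficients are descriptions only.

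The MHC domain, taken as midpoints in the 4.5 Mb above 33 Mb, held 91 loops, or 16.5% of the chromosome (13.5 to 19.9%). This is 20.2 loops per Mb, against 5.66 per Mb over the rest of the chromosome's extent, which includes the sparse stretches. The adjoining stretch from 23 to 33 Mb held 13.4 loops per Mb, and the block from 45 to 49 Mb held 23.8. Loops of the domain held 21.4% of the summed score of chromosome 17. The share depends on where the domain is cut: from 34 to 37 Mb it was 9.64%, since the narrower domain leaves out the 31 loops of the bin at 37 Mb and the 7 loops of the bin at 33 Mb. Of the 91 loops, 90 had both edges in the domain. The remaining loop joined 31419120 to 35978478, spanned 4.56 Mb and had a score of 2000.

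At its borders the domain was crossed by few loops. Near the lower border, the last loops below 33 Mb ran from 32526428 to 32533807 and from 32588286 to 32620527, and the first ones above it from 33015842 to 33062448 and from 33123165 to 33130375. Each of these 4 had a score of 2000 and an unshared anchor at either end, so neither density nor score set the border apart at this point. Apart from loops over 5 Mb, the 4.56 Mb loop was the only one that crossed the lower border, and none crossed the upper one. The last loops inside the upper border ended at 37334120 and had scores of 3000. Above it the next loop with both edges nearby ran from 43848955 to 43856554, also with a score of 3000.

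**Figure D2:**
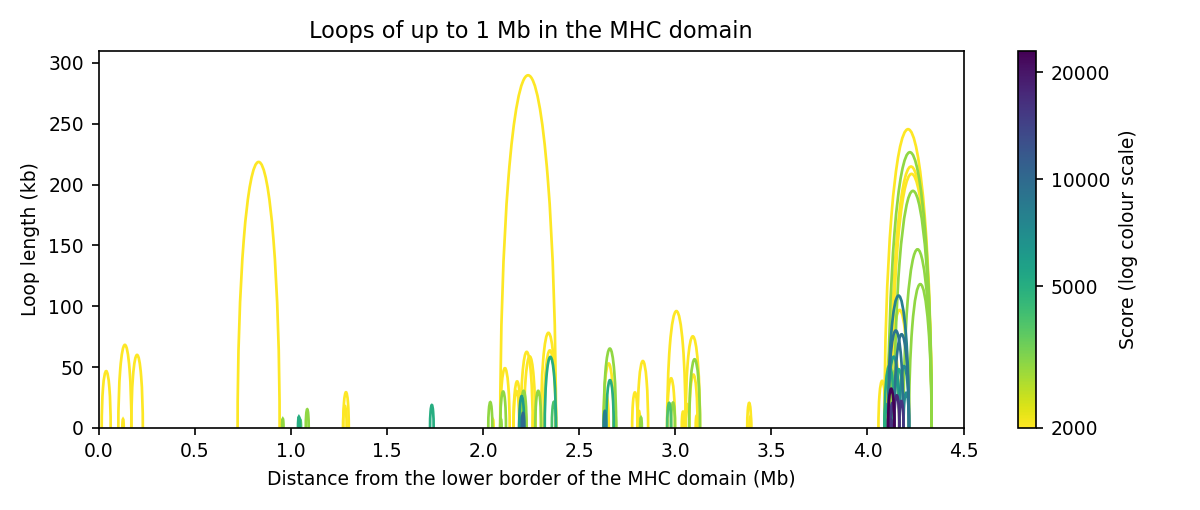
Loops of up to 1 Mb with their midpoint in the MHC domain, drawn as arcs between their edges; the horizontal axis is the distance from the lower border of the domain in Mb, the height of an arc is the loop length in kb, and the colour is the score on a log scale. Few loops lie in the first 2 Mb, and those with the highest scores are gathered just above 4 Mb.

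Inside the domain, loops were unevenly spread and fell into a sparse, a dense, a weak and a strong stretch. From 33 to 35 Mb there were 13 loops, the one of 4.56 Mb included, with scores of 2000 to 5000. No anchor there had more than 2 partners, and only 3 of 23 had 2. The strongest loops of this stretch were those from 34037166 to 34046314 and from 34724158 to 34742888, each with a score of 5000. From 35 to 36 Mb there were 37 loops, whose scores averaged 3216 ± 1843 (SD). Here 22 of 33 anchors, or 66.7% (48.2 to 82.0%), had 2 or more partners. From 36 to 37 Mb there were 10 loops, 9 with a score of 2000 and 1 with 3000. No anchor was seen between 36394921 and 37057219, which at 662 kb was the widest gap inside the domain, where neighbouring anchors lay a median of 19.96 kb apart. The 31 loops from 37 Mb to the upper border had a mean score of 6581.

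The stretch from 35 to 36 Mb was led by a group of 17 anchors and 22 loops from 35089450 to 35379294. Its strongest loop joined 35201944 to 35214120, 12.2 kb apart, with a score of 10000. The same right anchor was reached from 35188087 with a score of 6000 and from 35195940 with 3000. Most partners belonged to the anchor at 35195940 to 35196333, which had 6, namely 2 upstream and 4 downstream, and its loops summed to a score of 21000. The outermost anchors of a group can have partners on 1 side only, by the way groups are defined. The anchor that starts at 35089450 had 4 partners, all downstream, and the anchor that ends at 35379294 had 5, all upstream. These 2 end anchors were joined to each other by the longest loop of the group, 290 kb, with a score of 2000. A second, smaller group from 35627185 to 35692338 had 5 anchors and 6 loops, with a top score of 8000 between 35627185 and 35641068.

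All 31 loops above 37 Mb in the domain belonged to 1 group of 11 anchors from 37057219 to 37334120. Of the possible pairs of these anchors 56.4% were listed as loops, and scores ran up to 23000. The group held 31 of the 91 loops of the domain, but 204000 of its summed score of 380000, and 6 of its 7 loops with a score of 10000 or more. The strongest loop of the whole chromosome, from 37107539 to 37139725 with a score of 23000, joined the fourth and the seventh anchor and passed over the fifth and sixth. It ranked 9th in the whole list. The loops from 37119321 to 37126001, from 37119321 to 37139725 and from 37107539 to 37119437, with scores of 16000, 15000 and 12000, lay inside it. Beyond its right anchor the chain went on with a loop from 37139336 to 37166045, with a score of 17000, and another from 37165508 to 37187525, with 16000.

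**Figure D3:**
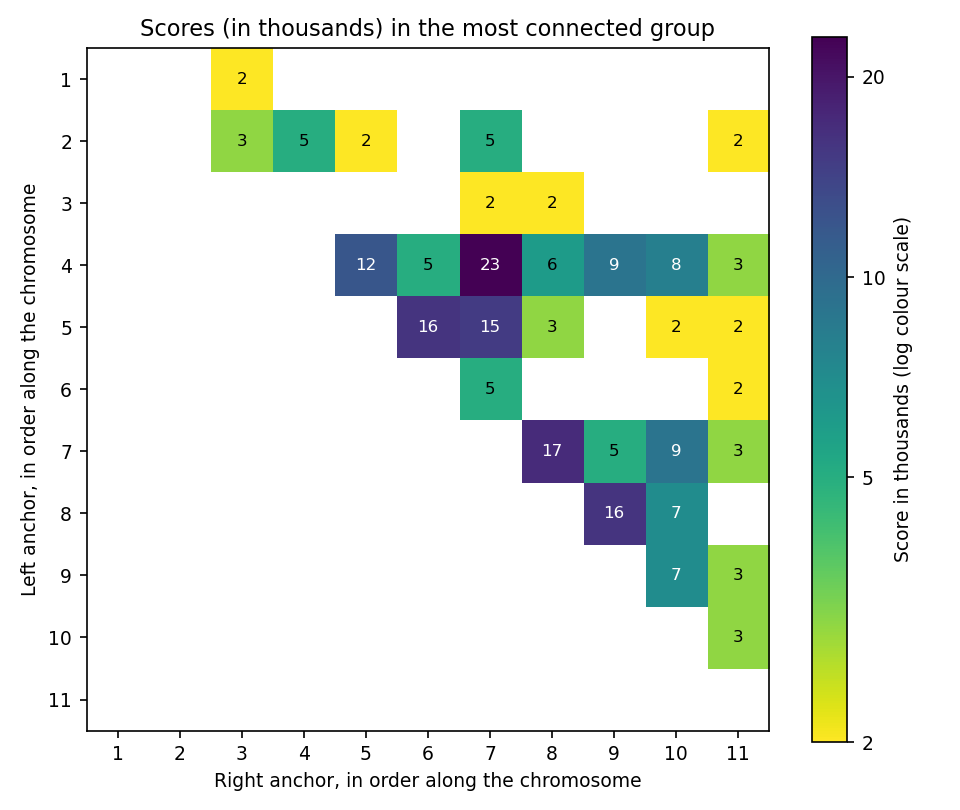
Scores of the 31 loops among the 11 anchors of the group from 37057219 to 37334120; rows are left anchors and columns right anchors, numbered in order along the chromosome, and blank cells are pairs with no listed loop. All scores of 7000 and more lie among the anchors numbered 4 to 10, and the last column holds only 2000 and 3000. Printed cell values are scores divided by 1000.

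Within this group, the mean score did not fall steadily with the number of anchors a loop passed over. Of the 10 pairs of neighbouring anchors 8 were listed, and their scores averaged 9875 ± 6058 (SD, 8 loops). Of the 9 pairs with 1 anchor between them 7 were listed, with a mean of 6000 and a range of 2000 to 15000. With 2 anchors between them 4 loops were listed, with a mean of 9250.0 ± 9674 (SD). Their range was from 2000 up to the 23000 of the strongest loop. Loops that passed over 3, 4 and 5 anchors averaged 3667 ± 2082, 4000 ± 3082 and 5000 ± 4243 (SD over 3, 5 and 2 loops). No loop over 3 or more anchors had a score above 9000. With so few loops, the order of these means can hang on a single loop. The anchor at 37139336 to 37139725 had 9 partners and a summed score of 84000, and the anchor at 37107539 to 37107803 had 8 partners and 71000. They had the largest summed scores of any anchor on the chromosome. The last anchor, ending at 37334120, lay 118 kb beyond its neighbour. As the end of the group it could have loops upstream only, and each of its 7 loops had a score of 2000 or 3000.

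With this group left out, scores and partner numbers in the MHC domain were closer to those of the rest of chromosome 17. Scores of 3000 or more were held by 48 of 91 loops in the domain, 52.7% (42.0 to 63.3%), and by 201 of 459 loops elsewhere on the chromosome, 43.8% (39.2 to 48.5%). Without the group, the share in the domain was 25 of 60, or 41.7% (29.1 to 55.1%). The mean score was 4176 ± 3872 in the domain and 3035 ± 1945 in the rest (SD over 91 and 459 loops), and 2933 ± 1593 in the domain without the group. Anchors in the domain had a mean of 2.39 partners, or 1.85 without the group, against 1.95 in the rest. The median length was 30.3 kb in the domain (21.1 to 44.4 kb) and 31.4 kb in the rest (27.6 to 35.7 kb). With the group left out, 60 loops remained, or 13.3 per Mb, still above the 5.66 per Mb of the rest. This was close to the 13.4 per Mb of the adjoining stretch from 23 to 33 Mb. The group was singled out after its values were seen, and no test was made, as the loops come from 1 merged list.

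With the group at 37 Mb included, the share of scores above 2000 was higher in the domain in each length class of up to 500 kb. The intervals were wide. For loops of 5 to 10 kb it was 64.3% in the domain, over 14 loops, and 55.9% in the rest of the chromosome, over 68. For loops of 20 to 50 kb it was 55.2%, over 29 loops (35.7 to 73.6%), against 46.5%, over 129 loops (37.7 to 55.5%). For loops of 100 to 500 kb it was held by 5 of 10 loops in the domain, against 28.4% of 74 in the rest. These 5 all belonged to the group at 37 Mb. Without that group, 41.7% of the domain's loops of all lengths had such a score, against 43.8% in the rest. The shares by class therefore do not describe the domain apart from this group. In every one of the 5 classes the 2 intervals overlapped, and differences by class were not tested. Between score and length, Spearman's rho was -0.22 over the 91 loops of the domain and -0.21 over the 459 of the rest.

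**Figure D4:**
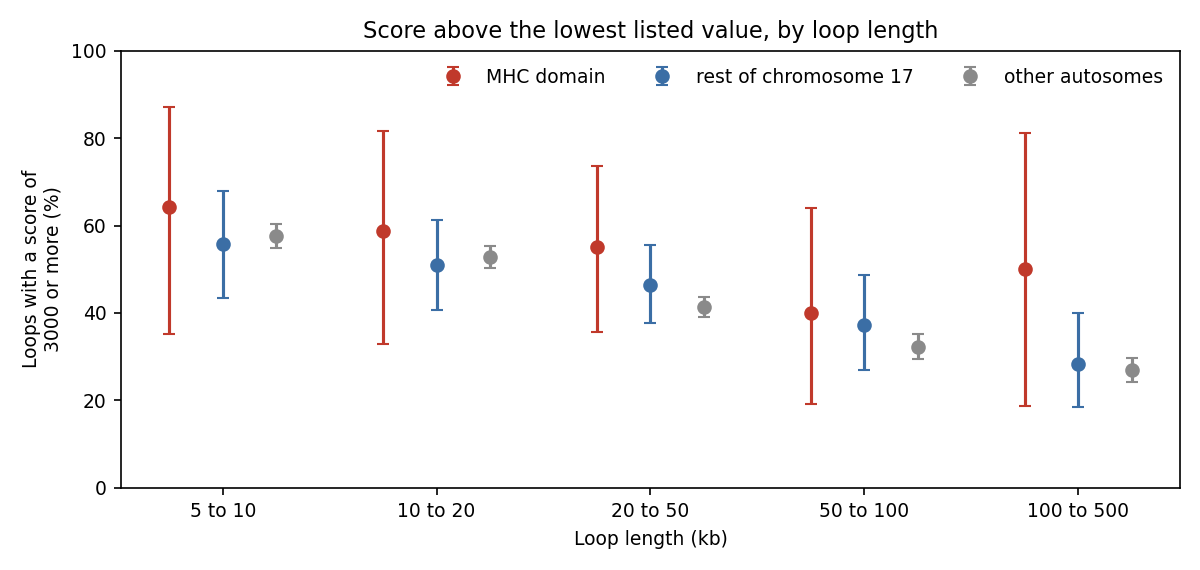
Share of loops with a score of 3000 or more, in percent, by loop length in kb, for the MHC domain, the rest of chromosome 17 and the other autosomes; bars are exact 95% intervals for counting error. The share falls with length on the other autosomes and in the rest of chromosome 17, and the intervals of the MHC domain overlap those of the rest of the chromosome in all 5 classes.

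Outside the MHC domain the fullest bin was the one at 71 Mb, and its main group ran from 71056403 to 71351696 with 16 anchors and 36 loops. Its centre, the anchor at 71183761 to 71183880, had 10 partners, the most on the chromosome, with 5 on either side. None of its loops was among the 10 strongest of the chromosome: they had scores of 2000 to 8000, the highest to 71223113, which lies 39.4 kb downstream. The strongest loop of the bin joined 71214757 to 71223113, 8.36 kb apart, with a score of 12000. Next was the loop from 71198237 to 71214960, with 9000. Upstream of the centre, the anchor at 71097089 to 71097243 had 7 partners, 6 of them downstream, and reached to 71250391 over 153 kb with a score of 4000. In this group 30.0% of the possible pairs were listed, with a mean score of 4000 and 21 of 36 loops at 3000 or more. It had more loops than the group at 37 Mb but a lower summed score, 144000 against 204000.

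Among the other dense bins, that at 29 Mb had the second highest mean score of the bins with 10 or more loops. Its loop from 29587863 to 29601273, 13.4 kb long, had a score of 19000. The right anchor of that loop, at 29601148 to 29601273, had 7 partners and a summed score of 50000. The bin belonged mostly to a group of 19 anchors from 29032259 to 29650444, which was held together across a gap by 1 loop of 385 kb with a score of 2000, from 29215847 to 29601273. On the near side of the gap the scores reached 7000, and on the far side 4 loops besides the strongest had 7000 or 9000.

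Outside the bins described so far, the highest scores were found between 26 and 46 Mb. The loop from 31945047 to 31956280, 11.2 kb long, had a score of 19000, and its left anchor had 9 partners and a summed score of 43000. One partner of that anchor was 488 kb away. A score of 13000 was held by the loop from 26685666 to 26734000, 48.3 kb long, and one of 12000 by the loop from 31419120 to 31433959. The loop from 45732428 to 45739164, 6.74 kb long, and the loop at 71 Mb described above had 12000 as well. In all, 14 loops had a score of 10000 or more, 7 in the MHC domain and 7 outside it. At the other end, 301 loops, or 54.7%, were listed at 2000.

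The bins from 45 to 49 Mb were dense without being strong. The scores of their 95 loops averaged 2821 ± 1557 (SD), and 37, or 38.9% (29.1 to 49.5%), had 3000 or more. Anchors were nevertheless often shared: 50 of 84, or 59.5% (48.3 to 70.1%), had 2 or more partners. The loops fell mainly into 4 groups, of 18, 13, 15 and 12 anchors. The tightest of these, from 47638979 to 47929587, had 25 loops and 11 closed triangles, that is, sets of 3 anchors with all 3 loops listed. The busiest anchor of the block, at 47648575 to 47648975, had 7 partners with a summed score of 17000. In the bin at 84 Mb loops were longer, with a median of 54.4 kb, and its main group had 25 anchors and 31 loops over 911 kb, with 10.3% of the possible pairs listed.

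Over the chromosome, 263 of the 547 anchors, or 48.1% (43.8 to 52.4%), had 2 or more partners. On the other autosomes the share was 37.3% (36.3 to 38.3%) over 8758 anchors. It was 43.2% (40.0 to 46.5%) on chromosome 11, 38.6% (33.5 to 43.9%) on chromosome 19 and 39.0% (35.5 to 42.6%) on chromosome 7, which follow chromosome 17 in loops per occupied bin. The share on chromosome 17 was the highest of the 20 chromosomes, and its interval overlapped those of chromosomes 11, 15, 18 and 19. With 4 or more partners there were 76 anchors, or 13.9%, against 6.82% of the anchors of the whole list, chromosome 17 included. On the other autosomes there were 563 among 8758. Of the 11 anchors in the list with 9 or more partners, 3 lay on chromosome 17, which held 547 of all 9407 anchors. Partners are counted from the same loops whose number was used to choose the chromosome, so these shares and ranks are descriptions only.

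**Figure D5:**
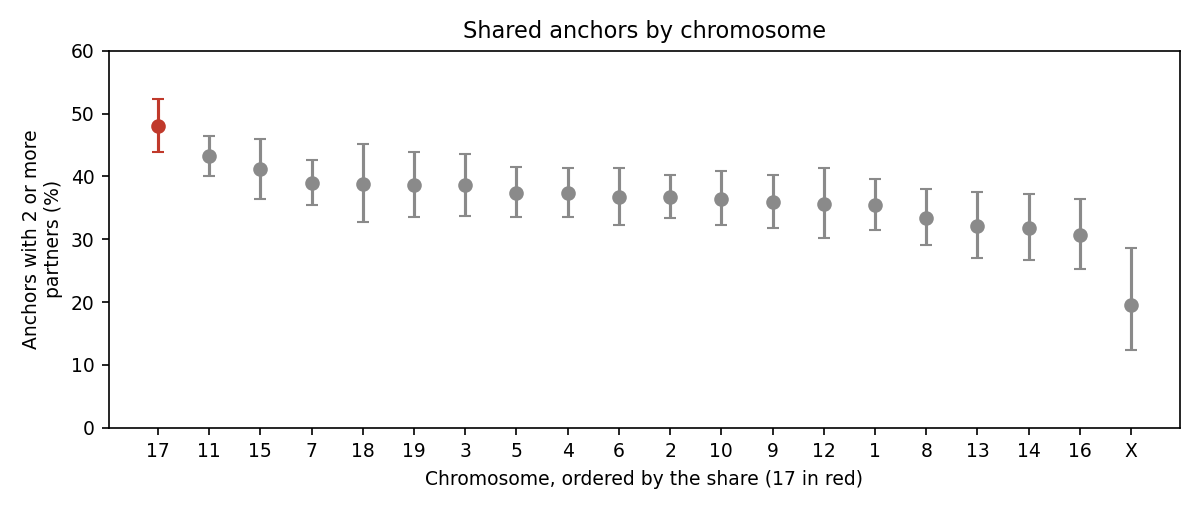
Share of anchors with 2 or more partners, in percent, for the 20 chromosomes with loops in the list, ordered by the share; bars are exact 95% intervals for counting error. Chromosome 17, in red, has the highest share, 48.1%, and its interval overlaps those of chromosomes 11, 15, 18 and 19. Partners are counted from the same loops whose number was used to choose chromosome 17.

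Loops on chromosome 17 passed over other anchors more often. Of its 543 loops of up to 5 Mb, 271, or 49.9% (45.6 to 54.2%), joined neighbouring anchors, against 60.4% (59.2 to 61.6%) on the other autosomes. Where anchors lie close together a loop of a given length passes over more of them, so this share moves with density, which was used to choose the chromosome. Of the sets of 3 anchors joined by at least 2 loops, 145 of 828, or 17.5%, were closed by the remaining loop, against 11.7% of 7175 on the other autosomes as a whole. This share was higher than on chromosome 17 on chromosome X, with 22.2% of 27 sets, and on chromosome 12, with 20.1% of 288. The group at 37 Mb gave 39 of the 145 on chromosome 17, and without it the share there was 14.4%. Large groups, of 10 or more anchors, numbered 14 on chromosome 17 and held 299 loops, or 55.1% of its loops of up to 5 Mb. On the other autosomes such groups held 24.9%. Chromosome 11 had 20 such groups with 288 of its 814 loops, and chromosome 7 had 12 with 197 of its 615. These 2 totals include loops over 5 Mb. Groups are built from the same loops whose number was used to choose the chromosome, so these values are descriptions only. Among the 125 large groups of the list, the group at 37 Mb ranked first by triangles and by the share of possible pairs listed, and the group at 71 Mb ranked second by triangles with 29. One large group, from 31383909 to 36128910, was held together by the single loop of 4.56 Mb.

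Score and length differed little between chromosome 17 and the other autosomes. Of its loops 45.3% (41.1 to 49.5%) had a score of at least 3000, against 41.9% (40.8 to 43.1%) of 7117 loops. The median length was 31.0 kb (27.8 to 35.4 kb) on chromosome 17 and 28.4 kb (27.4 to 29.6 kb) on the other autosomes. Both pairs of intervals overlapped, and these differences were not tested.

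Among anchors with 4 or more partners within 5 Mb, 17 of 75 had all of them on 1 side, 9 downstream and 8 upstream. All 17 were seen by a single edge, and such an anchor has partners on 1 side by construction. The share on the other autosomes was not computed, so the count is a description only. Several bounded a group, where partners can lie on the inner side only, as at 37334120 with 7 partners upstream. The anchors at 35089450 and 35379294, described above, did so too. In the bin at 66 Mb, the anchor starting at 66584516 had 4 partners downstream and the anchor ending at 66833556 had 4 upstream. These were the ends of the largest group in that bin.

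Loops over 5 Mb numbered 7, or 1.27% of the chromosome's loops, and 6 of them had a score of 2000. The longest ran from 5189424 to 88334321, over 83.1 Mb, and its midpoint fell in the bin at 46 Mb without any end there. Of these loops 3 had an end in the MHC domain: from 34700960 to 83922464, from 33821552 to 73457410, and from 27341344 to 35321129. Long loops often ended at anchors that local loops also used. Among those with an end in the MHC domain, the loop to 83922464 reached an anchor with 6 partners. The loop to 35321129 reached an anchor with 2. Outside the domain, the loops from 24664602, 31.5 Mb long, and from 47970082, 8.18 Mb long, both ended at 56148806. This anchor had 6 partners and was also the right end of the strongest local loop in the bin at 56 Mb, from 56098172 with a score of 5000. The loop from 47970082 had a score of 3000, the highest among the 7. The loop from 45756001 ended at 84587929, which was also the right end of the strongest loop in the bin at 84 Mb, from 84513301 with a score of 7000. For the ends of the loop from 33821552 to 73457410 no other partner was listed. With the 7 loops left out, 48 bins remained occupied, since 4 bins had held nothing else.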

How the data were processed

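ChIA-PET loops of both samples were deposited as 1 merged list of high-confidence interactions, per the file header, so the authors pooled the replicates. Its score column is used as the authors deposited it, in a unit not given in the sources used here. Per the submitters' processing notes, cutadapt, Bowtie and build mm9 were used. For the interaction caller, its thresholds, the treatment of reads that map to several places and the depth, details are likewise not given in those sources.

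A loop was taken to reach from the listed start to the listed end of its first anchor, since the second anchor repeats the left edge in all 7732 loops. This is an inference on which lengths, anchors and partners rest. Edges of opposite kind were joined into 1 anchor where the right one followed the left one by less than 5000 bp. On chromosome 17 edges of the same kind were at least 5241 bp apart, and a left edge followed a right edge by at least 5128 bp. Tables were handled with pandas 2.3.3 and intervals computed with scipy 1.17.1 and numpy 2.4.6, under Python 3.11.15. The anchor, partner and group steps were checked on simulated loops, whose anchors lay farther apart than the closest ones on chromosome 17. No p-value was computed, because the list has no replicates. Chromosome 17, the domain limits and the rules for named items (the 10 fullest bins, 10 strongest loops, 10 busiest anchors, 5 largest groups, 5 longest loops and the strong items of the MHC domain) were chosen with earlier results of these data known. Genes at anchors and anchor sequences were not analysed here.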

Additional observations from a re-analysis of the deposited data

How the results depend on the processing

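Of 45 values from 10 alternatives for 9 results, 33 stayed within the main interval, or for counts within 1.5 times the main count, and 12 did not. With a minimum score of 3000, 249 loops remained, the 10 fullest bins held 58.2% of them, 37.2% of anchors had 2 or more partners and the median length was 25.03 kb. With 1 loop per connected group, loops over 5 Mb here kept in forming the groups, 122 loops remained and the 10 fullest bins held 39.3%. The MHC domain held 12.3% of them, 54.1% had a score of 3000 or more and the median length was 21.5 kb. These settings use fewer loops by construction. The second keeps the strongest loop of each group. With the MHC domain from 34 to 37 Mb, its share of loops was 9.64%. Without the group of the strongest loop, an alternative chosen after seeing the data, the domain held 11.6% of the loops, and 41.7% of the domain's loops had a score of 3000 or more. Leaving out loops over 5 Mb, shifting the bins by 0.5 Mb, placing loops by the left edge, requiring both edges in the domain and joining edges within 10000 bp or 2000 bp kept every value they gave within these limits. No paired analysis was possible because both samples form 1 group, and no replicate could be left out of a merged list. Depth is unknown, and 54.7% of loops have the lowest score, so loops missing from a bin cannot be called absent.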
